A study of Mus musculus with 12 samples.

Results

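The Hox cluster genes encode homeodomain transcription factors that lie in 4 chromosomal clusters, Hoxa, Hoxb, Hoxc and Hoxd. They were taken as all genes of the deposited tables whose symbol is Hox, a cluster letter from a to d and a number, with nothing after it. This gave 35 of 19996 genes. The members described are 34 of these, with 10 in Hoxa, 9 in Hoxb, 8 in Hoxc and 7 in Hoxd. All were listed in each of the 3 tables. Their RNA was followed across 12 libraries of polyadenylated RNA from mouse embryonic stem cells, in 6 groups of 2. In 4 groups the cells were Foxd3fl/fl;Cre-ER, a line in which 4-hydroxytamoxifen activates a recombinase that removes the floxed Foxd3, a forkhead transcription factor gene. Both arms carried the floxed allele and the recombinase. The deleted arm received 2 µM 4-hydroxytamoxifen for 3 days and the floxed arm was untreated, so the drug itself and the deletion cannot be told apart. These arms were grown in SL, a medium with 15% serum and leukemia inhibitory factor on irradiated mouse embryonic fibroblast feeders, or in 2i, a medium with leukemia inhibitory factor, the MEK inhibitor PD0325901 (0.4 µM) and the GSK3 inhibitor CHIR99021 (3 µM), whose protocol names no feeders. The other 2 groups were tetON Foxd3 cells, which carry a doxycycline-inducible Foxd3, and wild-type LF2 cells (WT). Both received doxycycline (1 µg/µl, 3 days) in serum medium without feeders, so Foxd3 induction and other differences between these lines cannot be told apart.

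Hox proteins give cells of the embryo their position along the head-to-tail axis, and the order of the genes along a cluster matches the order in which they are switched on. Genes with low paralogue numbers act in the hindbrain and neck, and genes with high numbers act in the lumbar, sacral and tail region and in the distal limb. In pluripotent cells the clusters are kept largely silent by Polycomb complexes, with marks of activation and repression on the same promoters, whereas fibroblasts keep the Hox code of the body region they came from.

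The measurement was FPKM, fragments scaled to transcript length and library size, which the authors deposited per library. The depth of single libraries is unknown. The authors' group mean reads over all genes were about as many in the SL, tetON Foxd3 and WT groups (52790000 to 54096000) and fewer in the 2i groups (24279000 and 27063000). Of these, the Hox members held 1137 in SL deleted, 656 in SL floxed, 384 in 2i labelled deleted, 204 in 2i floxed, 1525 in tetON Foxd3 and 970.1 in WT cells. On the deposited mean reads, 0.1 FPKM of a Hox gene stood for a median of 5.33 to 10.6 reads, depending on the group, so most values below were low. The pluripotency gene Pou5f1 measured 404 to 782 FPKM in all 12 libraries. Foxd3 checked the labels. It measured 1.62 and 1.83 FPKM in SL deleted against 4.53 and 4.81 FPKM in SL floxed libraries, and 53.2 and 50.1 FPKM in tetON Foxd3 against 10.6 and 14.1 FPKM in WT. In 2i it measured 2.07 and 2.45 FPKM in the libraries labelled deleted and 2.51 and 2.42 FPKM in the floxed ones, which did not bear out the label. These 2i libraries are therefore called labelled deleted throughout. Whether both libraries of a group were grown as separate cultures is not in the labels, so the spread behind each p-value may be technical only.

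On GRCm38 (GENCODE M21), the 10 Hoxa members lie on chromosome 6, from 52162417 to 52260880, on the minus strand. The 9 Hoxb members lie on chromosome 11, from 96194316 to 96368256, the 8 Hoxc members on chromosome 15, from 102921103 to 103036852, and the 7 Hoxd members on chromosome 2, from 74668310 to 74765142, all on the plus strand. In each cluster the gene with the highest number lies at the 5′ end of the transcribed strand. Of the 34 members, 19 overlap another annotated gene, 13 of them on the same strand and 10 on the other strand. The library kit is not stated to keep the strand, so reads of such partners cannot be told apart. Hoxa11, for instance, overlaps the antisense transcript Hoxa11os, and Hoxc6, Hoxc8, Hoxc9 and Hoxc10 lie within or across the span annotated for Hoxc5. Hoxc13, Hoxc12, Hoxb9, Hoxb13, Hoxb4, Hoxd13 and Hoxa13 overlap no other annotated gene.

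Hox RNA was low in all 6 groups. Only 4 of the 34 members reached a group mean of 1 FPKM anywhere, namely Hoxc13, Hoxc12, Hoxb9 and Hoxc6. A further 27 members peaked between 0.1 and 1 FPKM and 3 stayed below 0.1 FPKM in every group mean. Counted as detected at 0.1 FPKM or more in both libraries of a group, 22 of 34 members were detected in SL deleted and 19 in SL floxed cells, 10 in 2i labelled deleted and 2 in 2i floxed cells, 10 in tetON Foxd3 and 11 in WT cells. All 4 clusters were represented in SL. In SL deleted cells 6 of 10 Hoxa, 6 of 9 Hoxb, 6 of 8 Hoxc and 4 of 7 Hoxd members were detected, and in SL floxed cells 4 Hoxa, 7 Hoxb, 5 Hoxc and 3 Hoxd members. In 2i floxed cells only Hoxc4 and Hoxc13 were at this level, and 14 members, 7 of them in Hoxa, were listed at 0 in both libraries. WT cells had 5 of 7 Hoxd members at this level but 1 of 9 Hoxb members, and tetON Foxd3 cells had 2 Hoxd and 3 Hoxb members. The tables were normalized separately, so levels from different tables are set side by side here with no test.

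**Figure D1:**
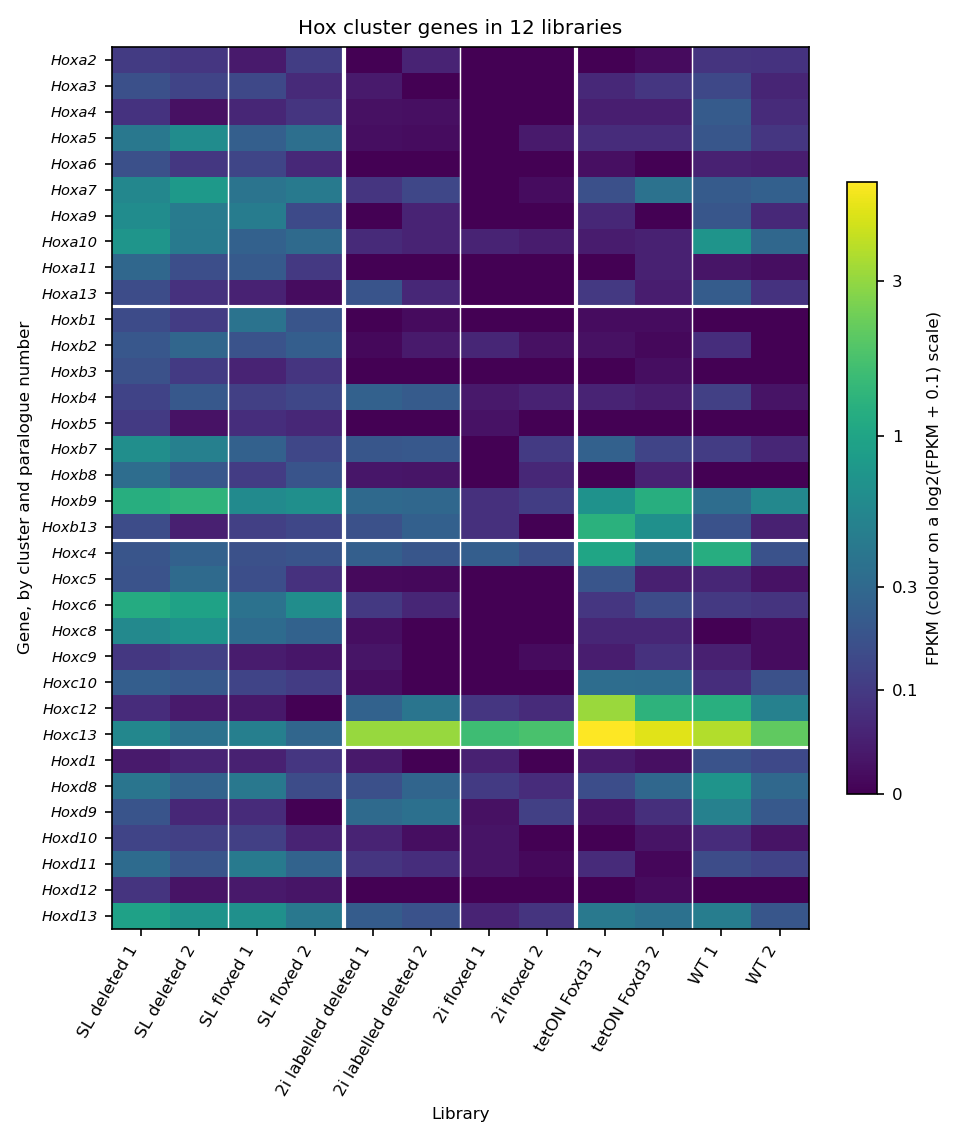
Each row is a Hox gene, grouped by cluster and ordered by paralogue number, and each column is 1 of the 12 libraries; colour gives FPKM on a log2(FPKM + 0.1) scale. The 4 SL libraries show low levels across all clusters, 2i floxed libraries show little beyond Hoxc13, and Hoxc12 and Hoxc13 are brightest in tetON Foxd3.

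The members fell into different patterns across the groups. Hoxc4 and Hoxc13 were at 0.1 FPKM or more in all 12 libraries. In all 4 SL libraries 18 members were at this level, and 4 of these, Hoxb1, Hoxb2, Hoxb8 and Hoxc8, were below it in all 8 other libraries. For Hoxb2 the authors' deposited mean reads were only 2.46 in SL deleted and 3.13 in SL floxed cells, so its FPKM there is uncertain. For 12 members, among them Hoxa5, Hoxa7, Hoxc6, Hoxc8 and Hoxd11, the lowest SL library lay above the highest of the 8 others. Hoxc12 and Hoxc13 showed the opposite order, with the highest SL library below the lowest of the 4 feeder-free libraries.

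Hoxc13 (chromosome 15, 102921103 to 102928814), a regulator of hair and nail formation at the 5′ end of its cluster, had the highest group mean of the 34 members, in tetON Foxd3, though in both SL groups Hoxb9, Hoxd13, Hoxc6 and Hoxa7 had higher means. It measured 0.569 and 0.368 FPKM in SL deleted, 0.482 and 0.285 in SL floxed, 3.10 and 3.10 in 2i labelled deleted, 1.59 and 1.76 in 2i floxed, 5.92 and 4.91 in tetON Foxd3 and 3.63 and 2.13 FPKM in WT libraries. Every library outside SL thus exceeded every SL library. Its neighbour Hoxc12 (chromosome 15, 102936757 to 102938609) measured 0.0691 and 0.0339 FPKM in SL deleted, 0.0306 and 0 in SL floxed, 0.261 and 0.391 in 2i labelled deleted, 0.0921 and 0.0662 in 2i floxed, 3.17 and 1.31 in tetON Foxd3 and 1.22 and 0.504 FPKM in WT libraries. It was at most 0.0691 FPKM in SL and at most 0.0921 FPKM in 2i floxed libraries. Its highest values were in the feeder-free serum libraries, where the replicates of a group lay far apart. The SL and feeder-free libraries also differ in cell line and doxycycline, so feeders cannot be told apart from these.

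Hoxb9 (chromosome 11, 96271457 to 96276595), which patterns the thoracic skeleton, measured 1.20 and 1.33 FPKM in SL deleted, 0.613 and 0.672 in SL floxed, 0.305 and 0.295 in 2i labelled deleted, 0.0753 and 0.109 in 2i floxed, 0.711 and 1.20 in tetON Foxd3 and 0.333 and 0.574 FPKM in WT libraries. Its groups did not overlap within any of the 3 tables. Hoxc6 (chromosome 15, 102998257 to 103011881), a gene of the brachial and thoracic region, measured 1.14 and 0.957 FPKM in SL deleted and 0.367 and 0.640 in SL floxed libraries, at most 0.099 in 2i and at most 0.160 FPKM in the feeder-free libraries. Of the members just below 1 FPKM, Hoxb13, a gene of the tail bud and prostate, had its highest group mean in tetON Foxd3 (0.974 FPKM), as did Hoxc4 (0.702 FPKM). Hoxd13, a regulator of digit formation (0.826 FPKM), Hoxa7 (0.685 FPKM) and Hoxc8 (0.647 FPKM), both genes of the thoracic region, had theirs in SL deleted cells.

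**Figure D2:**
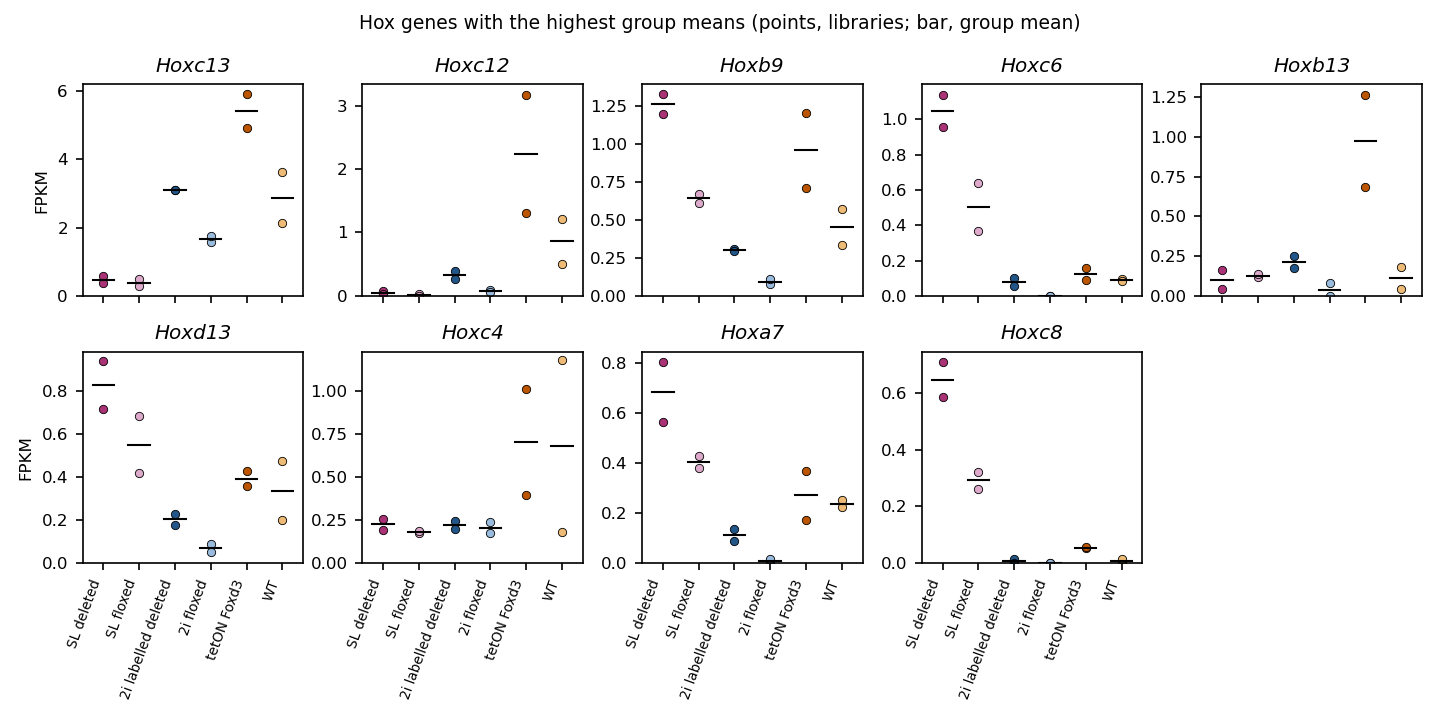
FPKM (linear axis from 0, scaled per panel) of the 4 Hox genes with a group mean of at least 1 FPKM and the 5 next highest, in order of their highest group mean; points are libraries and bars are means of 2. Hoxc6, Hoxc8 and Hoxa7 are highest in SL, and Hoxc13, Hoxc12 and Hoxb13 in tetON Foxd3.

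Summed over the 34 members, Hox RNA measured 11.6 and 10.1 FPKM in SL deleted, 7.38 and 6.14 in SL floxed, 6.05 and 6.09 in 2i labelled deleted, 2.50 and 2.72 in 2i floxed, 14.4 and 10.9 in tetON Foxd3 and 11.3 and 5.88 FPKM in WT libraries. The sums were of similar size in SL and in feeder-free serum, but their make-up differed. Hoxc members gave 23.2% to 29.4% of the sum in the SL libraries, 61.6% to 76.7% in the 2i libraries and 53.1% to 75.1% in the feeder-free libraries. Hoxc13 alone gave 3.64% to 6.54% of the sum in SL, 51.2% and 50.9% in 2i labelled deleted, 63.5% and 64.8% in 2i floxed and 32.1% to 45.0% in the feeder-free libraries. Hoxa members gave 26.8% to 28.8% of it in SL, 2.06% to 6.86% in 2i and 3.83% to 18.6% in the feeder-free libraries.

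Fibroblast RNA was present in the SL libraries. Of 24 fibroblast genes listed, 23 were found, and their median level was 10.3 and 9.64 FPKM in SL deleted and 6.87 and 7.23 FPKM in SL floxed libraries, against 0.226 to 0.585 FPKM in the other 8. Prrx1, a homeobox gene of limb and facial mesenchyme, measured 7.92 and 6.39 FPKM in SL deleted, 3.56 and 3.44 FPKM in SL floxed and at most 0.0539 FPKM in the other libraries. The collagen gene Col3a1 measured 7.23 to 10.3 FPKM in SL and 0.153 to 0.744 FPKM in 2i, and was listed at 0 in all 4 feeder-free libraries. The dermal proteoglycan gene Lum was listed at 0 in all 8 libraries outside SL and reached only 0.0915 FPKM in SL. Other listed genes set SL apart less. Twist1 measured 2.13 to 2.86 FPKM in SL and 1.89 to 2.39 FPKM in the feeder-free libraries. Loxl1 measured 3.98 to 6.18 FPKM in SL and 2.22 to 2.80 FPKM in the feeder-free libraries. The summed fibroblast level was less sharp, at 533 to 854 FPKM in SL, 314 to 370 FPKM in 2i and 72.1 to 126 FPKM in the feeder-free libraries, since Fn1, a matrix gene that the stem cells also made, gave 289 to 325 FPKM of it in 2i. Levels of the Y-linked Eif2s3y were 1.14 and 0.931 FPKM in the SL deleted and 0.578 and 0.637 FPKM in the SL floxed libraries. It was listed at 0 in all 8 libraries outside SL, as was the Y-linked Ddx3y, which measured 0.285 to 0.499 FPKM in SL. Kdm5d, also Y-linked, measured 0.0446 to 0.123 FPKM in SL and 0.0614 to 0.0909 FPKM in 2i, and was listed at 0 in the feeder-free libraries. For each 100 FPKM of summed fibroblast genes, the SL libraries held 1.36 and 1.35 FPKM of Hox RNA in deleted and 1.38 and 1.06 FPKM in floxed cells. Outside SL most of the fibroblast sum was Fn1, so the values there do not measure Hox RNA per fibroblast RNA. They were 1.63 and 1.70 FPKM in 2i labelled deleted and 0.746 and 0.866 FPKM in 2i floxed libraries. In the feeder-free libraries they were 11.5 and 9.65 FPKM in tetON Foxd3 and 13.9 and 8.16 FPKM in WT. The part of feeder RNA in the Hox levels of SL was not tested. In bulk RNA, fewer cells of a type and less RNA per cell cannot be told apart.

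**Figure D3:**
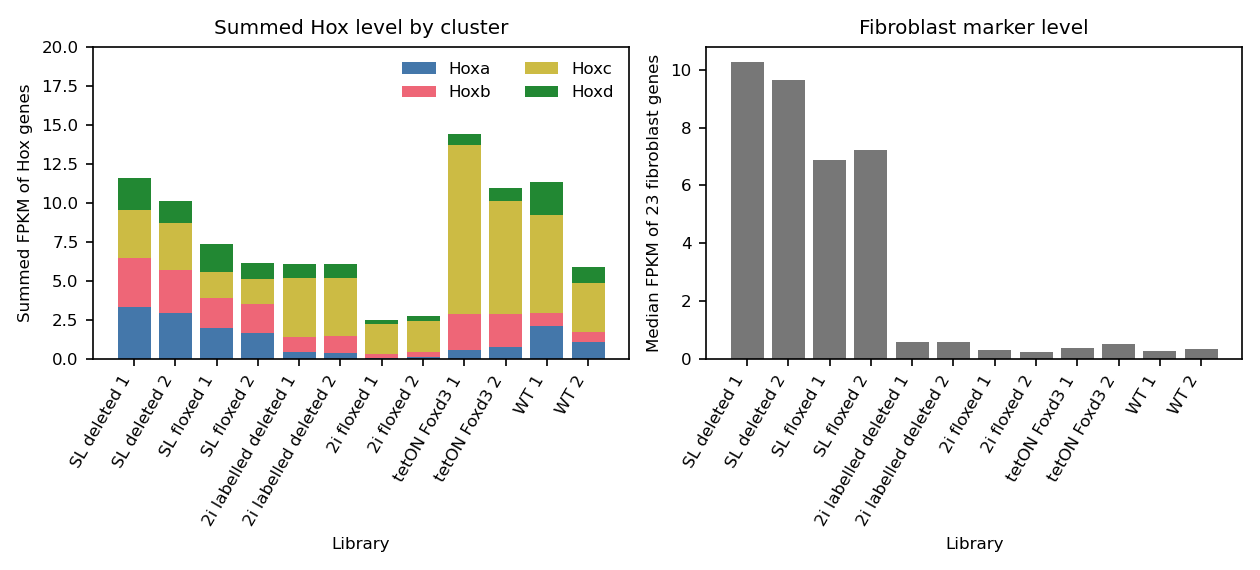
Left, summed FPKM of the 34 Hox genes per library, stacked by cluster; right, median FPKM of 23 fibroblast genes in the same libraries (linear axes from 0). The fibroblast median is 6.87 to 10.3 FPKM in SL and at most 0.585 FPKM elsewhere, while the Hox sum is as high in tetON Foxd3 as in SL deleted, mostly from Hoxc.

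In SL the comparison addresses what loss of Foxd3 does in serum with feeders. Most Hox members measured higher in the deleted than in the floxed libraries, but none passed the test. The summed level was 10.9 ± 1.07 against 6.76 ± 0.875 FPKM (SD, n = 2 each), a ratio of 1.61. It was 1.71 for Hoxa, 1.58 for Hoxb, 1.83 for Hoxc and 1.26 for Hoxd, where the libraries of the 2 groups overlapped. Both deleted libraries lay above both floxed libraries for 17 of 34 members (50.0%), against 20.8% of all genes measured above 0. These were 7 of 8 Hoxc members, 4 of 10 in Hoxa, 4 of 9 in Hoxb and 2 of 7 in Hoxd. In the opposite order stood 1 member, against a background of 15.7%. It was Hoxb1, a hindbrain gene at the 3′ end of Hoxb, with 0.155 and 0.106 FPKM in deleted against 0.374 and 0.195 FPKM in floxed libraries.

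Of the 2 members tested by limma in SL, 0 passed at an adjusted p under 0.05 and both had an unadjusted p under 0.05, while 0.00832% of the 12024 genes tested were called in either direction and 9.12% had such an unadjusted p. Both members reached 1 FPKM only in the deleted group, where they were high, so their share of low p-values is shaped by the filter and supports nothing. On the log2(FPKM + 1) scale Hoxb9 differed by 0.46 (SE 0.16, limma adjusted p = 0.470) and Hoxc6 by 0.45 (SE 0.18, adjusted p = 0.537). Low genes look less changed on this scale than they are. As plain ratios of group means these genes stood 1.97 and 2.08 times higher. The authors' deposited table gave an unadjusted p under 0.05 to 5 members, all higher in deleted cells (Hoxb7, Hoxb8, Hoxb9, Hoxc6 and Hoxc8), against 3.89% of all genes in that direction, and 0 of the 5 held after adjustment over all genes, where 0.44% were called higher. In the same libraries 20 of 23 fibroblast genes had both deleted libraries above both floxed ones, and the fibroblast sum was 1.44 times higher in deleted cells. The part of this difference in feeder RNA in the Hox differences was not tested.

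In 2i, Hoxc13 was higher in the labelled deleted libraries, in a comparison in which most genes differed. It was the only 1 of the 34 members that reached the level for testing, and it was called (limma). Of all 11637 genes tested, 47.9% were called higher and 19.7% lower, and the median log2 difference over all genes was 0.19. Hoxc13 was 1.85 times higher by group means, at 3.10 and 3.10 against 1.59 and 1.76 FPKM (log2 difference 0.62, SE 0.10, limma adjusted p = 0.000733). After median-of-ratios scaling, which brought the median of all genes to -0.02 and turned the split of calls from 5573 higher and 2291 lower to 3509 higher and 3921 lower, Hoxc13 differed by 0.46 (limma adjusted p = 0.00442).

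With genes tested down to a mean of 0.1 FPKM, 8 of 12 members were called higher and 0 lower by limma in 2i, against 43.3% of all genes called higher. Of the 8, 7 reached 0.1 FPKM only in the labelled deleted group, so the filter itself favoured calls in this direction and the count is a description only. Over all 30 members measured above 0, with no such filter, 12 were called higher and 0 lower, near the 35.9% of all genes called higher. The 8 called at 0.1 FPKM were Hoxc13, Hoxb4, Hoxb7, Hoxb9, Hoxb13, Hoxc12, Hoxd9 and Hoxd13. Hoxa7, Hoxc6, Hoxd8 and Hoxd11 were called by limma only with no filter. Hoxb4, a gene of the neck region that is also known from blood stem cells, measured 0.256 and 0.226 FPKM against 0.0330 and 0.0478 FPKM. Hoxd9, a gene of the lumbar region and forelimb, measured 0.312 and 0.355 FPKM against 0.0201 and 0.116 FPKM. Hoxd13 measured 0.229 and 0.179 FPKM against 0.0512 and 0.0867 FPKM. When the p-values in the authors' deposited table were adjusted over all genes, 5 members were higher and 0 lower (Hoxa13, Hoxb4, Hoxb13, Hoxc13 and Hoxd9), against 20.6% of all genes called higher. Hoxa13, a gene of the digits and the genital tract, measured 0.191 and 0.0580 FPKM in the labelled deleted libraries and was listed at 0 in both floxed ones. Both labelled deleted libraries lay above both floxed ones for 15 of the 30 members measured above 0 (50.0%), close to the 52.2% of all genes, and below them for 0, against 23.6% of all genes. The higher members were spread over the clusters, with 3 in Hoxa and 4 in each of the others. The summed Hoxa level was 5.85 times, Hoxb 3.39 times, Hoxc 1.91 times and Hoxd 3.25 times that of the floxed libraries, and 4.998, 2.90, 1.64 and 2.78 times after scaling. The Hoxa ratio rests on mean sums near 0, 0.398 against 0.0681 FPKM, with 7 of 10 Hoxa members listed at 0 in both floxed libraries. The median of the fibroblast genes also stood higher, at 0.574 and 0.585 against 0.316 and 0.226 FPKM. Of 22 fibroblast genes measured above 0, 13 had both labelled deleted libraries above both floxed ones, against 52.2% of all genes. The opposite order held for 4 (Pdgfrb, Col6a1, Twist1 and Thy1), against 23.6% of all genes. The part of fibroblast RNA in these Hox values was not tested. Since Foxd3 did not bear out the 2i label, no direction here can be tied to its loss.

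Promoter sequence is shown for 3 of the members that were called in 2i under one of these rules, because the clusters are known for CpG-rich promoters that Polycomb complexes bind. These are the 250 bases before the RefSeq start (GRCm38.p6), 5′ to 3′ on the strand of the gene, with CG dinucleotides in capitals: Hoxb4 at chr11:96318017-96318266 (plus strand), Hoxd13 at chr2:74667975-74668224 (plus strand) and Hoxa13 at chr6:52260881-52261130 (minus strand).
Hoxb4: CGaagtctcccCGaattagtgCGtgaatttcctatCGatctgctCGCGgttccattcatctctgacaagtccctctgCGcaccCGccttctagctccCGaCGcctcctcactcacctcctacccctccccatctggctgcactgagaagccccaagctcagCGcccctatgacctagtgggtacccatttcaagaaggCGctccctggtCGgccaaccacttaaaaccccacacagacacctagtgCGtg
Hoxd13: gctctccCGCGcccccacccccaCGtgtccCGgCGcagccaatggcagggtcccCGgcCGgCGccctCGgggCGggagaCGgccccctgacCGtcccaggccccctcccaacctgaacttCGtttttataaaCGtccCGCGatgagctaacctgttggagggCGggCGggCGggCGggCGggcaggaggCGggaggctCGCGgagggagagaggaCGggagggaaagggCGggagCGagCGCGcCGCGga
Hoxa13: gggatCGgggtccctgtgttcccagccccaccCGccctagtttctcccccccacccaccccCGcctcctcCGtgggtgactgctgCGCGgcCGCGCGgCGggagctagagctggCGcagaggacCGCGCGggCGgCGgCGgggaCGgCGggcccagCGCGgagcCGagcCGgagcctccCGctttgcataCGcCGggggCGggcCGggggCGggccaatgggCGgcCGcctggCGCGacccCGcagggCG
The Hoxb4 window holds 14 CG dinucleotides, that of Hoxd13 31 and that of Hoxa13 35. Windows of other members called in 2i held fewer than those of Hoxd13 and Hoxa13. These were 13 for Hoxd9, 7 for Hoxa7, 6 for Hoxd8, and 20 and 2 for separate windows of Hoxd11. RefSeq windows were matched for 20 members (22 windows), and Hoxb7, Hoxb9, Hoxb13, Hoxc6, Hoxc12 and Hoxc13 were not among them. The median was 13 CG dinucleotides and 59.2% G and C in the Hox windows, against 6 and 52.4% over all 32851 promoter windows of the same length. At least 10 CG dinucleotides were held by 63.6% of the Hox windows and 37.8% of all windows. The forkhead motif TGTTTAC, searched on both strands and with overlaps allowed, was found in 0 of the 22 Hox windows and in 3.17% of all windows. These matches describe letters in the windows only.

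Whether the deletion response differed between media was tested as the 2i difference minus the SL difference. Of the 3 members tested by limma, 0 passed, with 1 at an unadjusted p under 0.05, while 23.9% of all 12497 genes tested passed in either direction and 39.1% had such an unadjusted p. Hoxc13 had the smallest p, with a difference of 0.53 (SE 0.18, limma adjusted p = 0.0594). Its SL libraries overlapped between the groups, while its 2i libraries did not. With genes tested down to 0.1 FPKM, 1 of 29 members passed, against 4.37% of all genes called in its direction. This was Hoxc8, with a difference of -0.34 (SE 0.09, limma adjusted p = 0.0362): it measured 0.585 and 0.710 FPKM in SL deleted and 0.321 and 0.263 FPKM in SL floxed libraries, but 0.0164 FPKM at most in 2i. It reached 0.1 FPKM only in SL, and the test therefore set a difference in SL against values near 0.

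The third comparison asked what Foxd3 overexpression changed in serum without feeders. Summed by cluster, Hoxb and Hoxc RNA measured higher and Hoxa and Hoxd RNA lower in tetON Foxd3 than in WT, while limma called no single member and some members lay on the other side of their cluster's sum. Summed Hoxb RNA measured 2.32 and 2.15 FPKM in tetON Foxd3 against 0.808 and 0.699 FPKM in WT libraries, 2.96 times as much by group means. Summed Hoxc RNA measured 10.8 and 7.28 FPKM against 6.29 and 3.13 FPKM, 1.92 times as much. In each of these clusters 2 genes gave most of the sum. Hoxb9 and Hoxb13 had group means of 0.958 and 0.974 FPKM in tetON Foxd3 and 0.454 and 0.112 FPKM in WT. Hoxc13 and Hoxc12 had 5.42 and 2.24 FPKM in tetON Foxd3 and 2.88 and 0.860 FPKM in WT. Summed Hoxa RNA was 2.48 times higher in WT, at 0.552 and 0.717 FPKM in tetON Foxd3 against 2.11 and 1.04 FPKM. Summed Hoxd RNA was 2.09 times higher in WT, at 0.717 and 0.786 FPKM against 2.13 and 1.02 FPKM. None of the 4 sums overlapped between the groups, and an exact permutation test of 2 against 2 libraries cannot give a two-sided p below 0.333. Replicate 1 of WT ran higher than replicate 2 in every cluster sum, which widened the WT spread.

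By member, both tetON Foxd3 libraries lay above both WT libraries for 8 of 33 members measured above 0 (24.2%, against 26.8% of all genes). They lay below for 11 (33.3%, against 22.7% of all genes). All 8 higher members were in Hoxb (Hoxb1, Hoxb7, Hoxb9 and Hoxb13) or Hoxc (Hoxc8, Hoxc10, Hoxc12 and Hoxc13). All 11 lower members were in Hoxa (Hoxa2, Hoxa4, Hoxa5, Hoxa6, Hoxa9 and Hoxa10) or Hoxd (Hoxd1, Hoxd8, Hoxd9, Hoxd10 and Hoxd11). The split between clusters was noticed after these values were seen and has no test. Neighbouring genes in a cluster overlap and share regulatory sequence, so members are not independent. By group means, 13 of 17 Hoxa and Hoxd members were lower and 14 of 17 Hoxb and Hoxc members higher. Of all genes measured above 0, 54.1% were higher. Leaving out each library in turn gave 12 to 15 lower Hoxa and Hoxd members and 11 to 16 higher Hoxb and Hoxc members. These counts describe again the split that was noticed and lend it no support.

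The test called none of these members singly. Of 2 members tested by limma, 0 passed at an adjusted p under 0.05 and 1 had an unadjusted p under 0.05, while 2.64% of all 11972 genes tested were called in either direction and 20.8% had such an unadjusted p. Hoxc12 reached 1 FPKM only in tetON Foxd3. On the log2(FPKM + 1) scale Hoxc13 differed by 0.75 (SE 0.23, limma adjusted p = 0.154) and Hoxc12 by 0.77 (SE 0.34, adjusted p = 0.285). With genes tested down to 0.1 FPKM, 0 of 20 members passed, with 6 at an unadjusted p under 0.05, against 2.28% and 20.1% of all genes. When the p-values in the authors' deposited table were adjusted over all genes, 1 member passed, against 1.96% of all genes called higher. This was Hoxb13, which measured 1.27 and 0.682 FPKM in tetON Foxd3 and 0.179 and 0.0457 FPKM in WT libraries. The authors' deposited table gave it 126.3 against 11.9 mean reads, a fold of 10.7 (adjusted p = 0.00893). The authors' deposited table gave an unadjusted p under 0.05 to 8 members, 4 higher (Hoxb13, Hoxc8, Hoxc10 and Hoxc13, against 5.52% of all genes) and 4 lower (Hoxa10, Hoxd1, Hoxd9 and Hoxd11, against 6.25%).

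Hoxa10, a gene of the lumbar region and the uterus, is named here after its values were seen, as are Hoxd9 and Hoxc10. It measured 0.0377 and 0.0468 FPKM in tetON Foxd3 and 0.733 and 0.295 FPKM in WT libraries, 12.2 times higher in WT by group means. The authors' deposited table gave it 2.54 against 44.9 mean reads (adjusted p = 0.113). Hoxd9 measured 0.0288 and 0.0734 FPKM against 0.506 and 0.216 FPKM. Hoxc10 measured 0.333 and 0.323 FPKM in tetON Foxd3 and 0.0698 and 0.178 FPKM in WT libraries. Set beside the SL comparison, which shares no library with this one, directions were mixed. Of the 17 members with both SL deleted libraries above both floxed ones, 5 were also higher in tetON Foxd3 (Hoxb7, Hoxb9, Hoxc8, Hoxc10 and Hoxc12). Another 3 were lower (Hoxa5, Hoxa10 and Hoxd10) and 9 overlapped between tetON Foxd3 and WT. Over all genes measured above 0, 26.8% were higher and 22.7% lower in tetON Foxd3 by the same rule, so these counts set the members little apart. The median of the fibroblast genes was 0.370 and 0.497 FPKM in tetON Foxd3 and 0.265 and 0.337 FPKM in WT libraries. It was 1.44 times and the fibroblast sum 1.55 times higher in tetON Foxd3, with 50.3 to 108 FPKM of the sum from Fn1 and 0.978 to 19.2 FPKM from the actin-binding gene Tagln. Of 21 fibroblast genes measured above 0, 6 had both tetON Foxd3 libraries above both WT libraries, against 26.8% of all genes. For 3 they lay below, against 22.7% of all genes. The part of fibroblast genes in the Hox values was not tested.

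**Figure D4:**
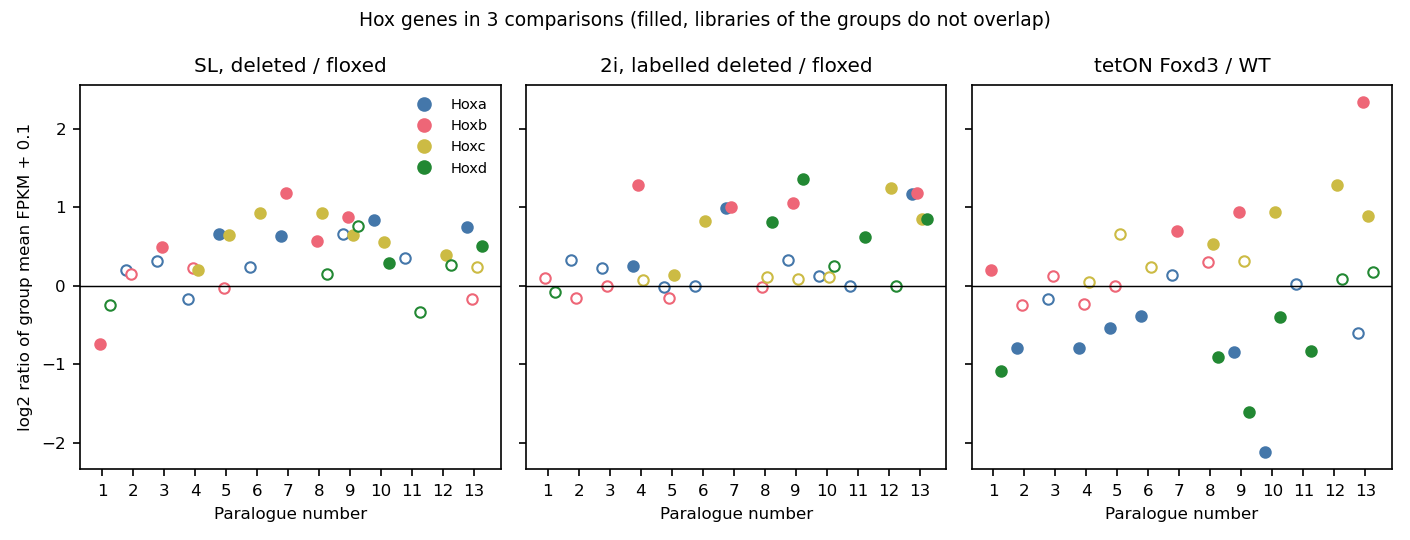
Log2 ratio of group mean FPKM (0.1 added to each mean) for the 34 Hox genes against paralogue number, coloured by cluster; filled points are genes whose libraries do not overlap between the groups. In tetON Foxd3 against WT the filled points are 8 Hoxb and Hoxc genes above 0 and 11 Hoxa and Hoxd genes below 0, while in 2i all 15 filled points lie above 0 and in SL 17 of 18.

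Genes that act with or on the clusters were read in the same fits. Over all genes tested in 2i, 47.9% were called higher and 19.7% lower. After scaling, 3509 of 11594 genes were called higher and 3921 lower there. In SL 0.00832% and with overexpression 2.64% of all genes tested were called in either direction. The TALE homeodomain proteins Pbx, Meis and Pknox bind DNA together with Hox proteins. In 2i, 2 of 5 tested were called higher, Pknox1 (log2 difference 0.83, limma adjusted p = 0.000102) and Pknox2 (0.97, limma adjusted p = 0.000377), and 0 lower, though after scaling 2 of 5 were called lower as well. In SL 0 of 5 and with overexpression 0 of 6 were called. The list of inducers of Hox expression held the Cdx factors, the retinoic acid and retinoid X receptors and the homeobox gene Gbx2. Cdx2 measured 0.594 to 1.01 FPKM in SL, at most 0.040 FPKM in 2i and at most 0.099 FPKM in the feeder-free libraries. Cdx4 measured 0.340 to 0.572 FPKM in SL, 0.356 to 0.775 FPKM in the feeder-free libraries and at most 0.0288 FPKM in 2i. Of the inducers tested in 2i, 3 of 5 were called higher by limma (Gbx2, Rxrb and Rarg) and 0 lower, and 1 of 5 after scaling (Gbx2). In SL 0 of 5 and with overexpression 0 of 5 were called.

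Polycomb genes, which encode the repressors of the clusters, were expressed in all groups. In 2i, 15 of 23 tested were called higher and 3 lower by limma, which became 11 and 7 after scaling. Examples were Mtf2 (log2 difference 1.38) and Jarid2 (0.83), both accessory subunits of Polycomb repressive complexes, and the core subunit Suz12 (0.61). In SL 0 of 23 and with overexpression 0 of 21 were called. Of the trithorax group, which opposes Polycomb, 7 of 10 were called higher and 2 lower in 2i, which became 5 and 3 after scaling. Kmt2a, a histone methyltransferase that maintains Hox expression, differed by 0.70 there (limma adjusted p = 0.000516). In SL 0 of 10 and with overexpression 0 of 10 trithorax genes were called. These shares stood beside the 47.9% and 19.7% called over all genes in 2i, and 3509 higher and 3921 lower of 11594 after scaling. Over all genes tested, 0.00832% were called in SL and 2.64% with overexpression. Of 8 tested genes near the clusters, 4 were called higher in 2i before scaling, and 3 higher and 4 lower after it, and in SL 0 of 7 were called. With overexpression 1 of 8 was called: Ttll6, a tubulin-modifying enzyme gene beside Hoxb13, measured 2.50 and 2.65 FPKM in tetON Foxd3 and 6.21 and 5.54 FPKM in WT libraries (log2 difference -0.94, limma adjusted p = 0.0469). It stood lower while Hoxb13 stood higher in the same libraries.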

How the data were processed

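RNA-seq was analysed in 12 libraries, in 6 groups of 2, from 3 deposited tables of 19996 genes (19718 in 2i). Per the file headers, the authors deposited FPKM per library, a mean read signal per group, a signed fold change and an unadjusted p-value. The deposited mean read signal carries the authors' own scaling and no spread. Deposited p-values were adjusted by table over its full set of genes. Per the submitters' processing notes, the tools included TopHat2, Cufflinks and DESeq2, with SAMtools and FastQC, and the builds named are mm10 and GRCm38. Tool versions were not given in the sources used here. FPKM is not a count, so no count test was run. Low members share few fragments, and FPKM keeps no record of how many.

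The 4 libraries of a table were fitted alone with limma 3.58.1 (R 4.3.3, trend) on log2(FPKM + 1), for genes whose mean reached 1 FPKM in some group, with 2 residual degrees of freedom, Benjamini-Hochberg adjustment over all genes tested and a threshold of 0.05. The fit was checked on simulated data. The difference between media was an interaction term over the SL and 2i tables, and the medium of each deletion table was read from its name. Alternatives were pseudocounts of 0.1 and 0.5, no filter, a filter of 0.1 FPKM, median-of-ratios scaling, a replicate block, leaving out each library and the authors' p-values.

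Members reaching a group mean of 1 FPKM, the 5 next highest and every member called were named, with up to 4 genes of each list. The members and lists were chosen with earlier results of these data known. A row that joins 2 Hox symbols falls outside the rule. Of the 35 genes that match it, 1 is not reported here and enters none of the Hox counts, sums or figures, nor is 1 gene of the lists.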

Additional observations from a re-analysis of the deposited data

Results flagged for a closer look

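Hoxc8 was picked out because its difference between deleted and floxed cells itself differed between the media, in a test run with genes down to a mean of 0.1 FPKM (2i difference minus SL difference -0.338 on the log2(FPKM + 1) scale, limma adjusted p = 0.0362). It passed that filter only through the SL groups. All 4 of its 2i values were at most 0.0164 FPKM, so the test set a difference in SL against 2i values near 0. It was not tested at the filter of 1 FPKM.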

How the results depend on the processing

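Of the alternatives for counts, sums and levels of detection, 89 stayed within 1.5 times or 1 SD of the value given and 39 moved, and of the differences of single members 84 kept direction and call, 5 gained a call and 1 changed direction. Detected members depended on the level chosen: above 0 in both libraries there were 34 in SL deleted, 32 in SL floxed, 21 in 2i labelled deleted, 11 in 2i floxed, 25 in tetON Foxd3 and 27 in WT cells, and at 1 FPKM there were 1, 0, 1, 1, 2 and 1. After median-of-ratios scaling the summed Hox level was 5.60 FPKM in 2i labelled deleted and 2.81 FPKM in 2i floxed cells. In 2i the members called by limma numbered 1 at the filter of 1 FPKM, 8 at 0.1 FPKM and 12 of 30 with no filter (50.4% of all 16608 genes were called there, in either direction), and 5 by the authors' p-values, each rule testing more members. In the difference between media 1 member passed in place of 0 with no filter, with the filter of 0.1 FPKM and without replicate 2 of SL floxed (Hoxc13, 0.63, limma adjusted p = 0.037). Hoxb9 turned from -0.21 to 0.19 in that comparison with a pseudocount of 0.1 and passed in neither. The genes called over the whole table moved from 1 to 107 in SL by the authors' p-values, and from 316 to 909 by them in overexpression, where 0 passed with no filter (3232 of 17032 at an unadjusted p under 0.05) and 1 Hox member passed by the authors' p-values. Leaving out 1 library at a time gave 1 to 313 genes in SL (74 and 313 without replicates 1 and 2 of SL deleted, 12 without replicate 2 of SL floxed) and 42 to 342 in overexpression (144 without replicate 1 of tetON Foxd3, 42 and 90 without replicates 1 and 2 of WT). It gave 683 to 3761 genes in the difference between media, against 2987 with all libraries, and 0 to 1 Hox members (1947 genes without replicate 1 of SL deleted, 1098 and 683 without replicates 1 and 2 of 2i labelled deleted, 1728 and 896 without replicates 1 and 2 of 2i floxed). The causes were not tested. With each library left out, an alternative added after seeing the data, 24 to 29 of 34 members were higher in SL and 20 to 26 in 2i, where 52.0% and 65.7% of all genes measured above 0 were higher with all libraries. By cluster, Hoxd in SL went from 5 higher and 2 lower to 3 higher and 4 lower without replicate 1 of SL deleted, and Hoxc in 2i from 8 higher to 4 higher, 2 lower and 2 equal without replicate 1 of 2i labelled deleted.

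The replicate numbers were not taken as pairing, since the labels name no shared culture. Deviations of same-numbered libraries from their group means correlated at 0.60 in SL, -0.05 in 2i and 0.60 in overexpression, as a hint from the data only. With the replicate block limma called 1997 genes in SL and 2 Hox members (Hoxb9, adjusted p = 0.00797, and Hoxc6, 0.0122), and 2473 genes in overexpression and 2 Hox members (Hoxc12, adjusted p = 0.0172, and Hoxc13, 0.0139). Counts in 2i and in the difference between media stayed within 1.5 times.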

Other observations

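A row that joins Hoxd3 and Hoxd4 fell outside the rule for members. It measured 0.168 and 0.0272 FPKM in SL deleted and 0.0246 and 0 FPKM in SL floxed libraries, 0 and 0.107 in 2i labelled deleted, 0 in both 2i floxed, 0.0271 and 0 in tetON Foxd3 and 0.135 and 0.0870 FPKM in WT libraries. Both WT libraries thus lay above both tetON Foxd3 libraries, as for Hoxd8, Hoxd9, Hoxd10, Hoxd11 and Hoxd1.

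Hoxb2 measured 0.203 and 0.290 FPKM in SL deleted and 0.185 and 0.241 FPKM in SL floxed libraries, while the authors' deposited table gave it only 2.46 and 3.13 mean reads in these groups. Hoxb1 has 0 FPKM in both WT libraries and 0.0151 and 0.0154 FPKM in tetON Foxd3, so its place among the higher members there rests on values near 0. Other members of that split also rest on few mean reads in tetON Foxd3 against WT. Examples are Hoxa2 (1.02 against 6.05), Hoxa6 (0.5 against 3.66), Hoxd10 (1.04 against 3.95) and Hoxc8 (7.13 against 0.56). In SL, Hoxc12 had 3.04 mean reads in deleted and 2.79 in floxed cells.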
